A study of Mus musculus with 7 samples.

Results

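The genes described are 10 apolipoproteins of the mouse liver, Apoa1, Apoa2, Apoa4, Apoa5, Apob, Apoc1, Apoc3, Apoe, Apoh and Apom, of 35715 distinct gene names on the array. They were chosen by name: every probe on the array annotated to one of these symbols was taken, which gave 13 probes, with Apoa2, Apob and Apoc3 measured by 2 probes each. All 13 probes were well above background on all 7 arrays and none was saturated, so every member entered the test. RNA of whole liver from 4-week-old C57BL/6J mice was hybridised to 1-colour Agilent arrays, 1 animal per array. The 4 Rbpj+/+ animals were AlfpCre- Rbpj flox/flox, and the 3 Rbpj-/- animals were AlfpCre+ Rbpj flox/flox and are labelled as cholestatic. Both genotypes carried the floxed Rbpj alleles, the animals were untreated, and only the Rbpj-/- animals carried the Cre transgene, whose albumin promoter and alpha-fetoprotein enhancer are active in cells of the hepatocyte and bile duct lineage. Rbpj is the DNA-binding protein through which Notch receptors act on transcription. The deletion, the transgene and the cholestasis were present in the same animals and cannot be told apart. The comparison asks which apolipoprotein transcripts differed between the livers of both genotypes.

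Apolipoproteins are the protein coat of plasma lipoproteins. Apolipoprotein B is the structural protein of very low density and low density lipoprotein, and hepatocytes load it with triglyceride while it is being translated. Apolipoproteins A-I and A-II make up most of the protein of high density lipoprotein (HDL), and apolipoprotein M, a lipocalin that carries sphingosine 1-phosphate, travels with it. The exchangeable proteins of triglyceride-rich particles adjust how fast these are hydrolysed and cleared. In cholestatic liver disease the plasma lipoproteins are known to be abnormal.

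The sequences below are the 60-base array probes that carry the results, as given in the array's deposited annotation, 5′ to 3′ in the sense of the transcript. They belong to Apoa1, the main protein of HDL, to the 2 genes that were higher in Rbpj-/- liver, and to both Apob probes, which did not give the same result. Coordinates are those of the array annotation (mm9). The annotation gave no coordinate for the Apoa4 probe.
Apoa1, chr9:46037921-46037980, plus strand: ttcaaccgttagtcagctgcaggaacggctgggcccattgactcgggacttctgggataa
Apoa4: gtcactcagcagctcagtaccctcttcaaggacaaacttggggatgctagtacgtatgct
Apom, chr17:35267047-35267106, minus strand: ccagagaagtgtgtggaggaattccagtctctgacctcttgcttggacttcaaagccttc
Apob, first probe, chr12:8012697-8012756, plus strand: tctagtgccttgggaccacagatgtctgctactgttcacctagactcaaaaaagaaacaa
Apob, second probe, chr12:8023194-8023253, plus strand: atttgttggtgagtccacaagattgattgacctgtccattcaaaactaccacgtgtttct

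Each value below is a normalized log2 intensity, the log2 of the background-corrected spot intensity minus the 75th percentile of all probes on that array. A difference is the mean of the Rbpj-/- arrays minus the mean of the Rbpj+/+ arrays on this log2 scale, with the standard error and the adjusted p of a limma fit over 24548 probes (Benjamini-Hochberg, false discovery rate 0.1). An exact permutation test over 4 and 3 arrays cannot give a p under 0.0286. Where a gene had more than 1 probe, the brighter probe stood for the gene in counts. The level of a probe also depends on its sequence, so levels of different genes are not compared.

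The targeted gene was examined first. The Rbpj probe at chr5:54048503-54048562 (mm9) read 0.97, 0.29, 0.33 and 0.81 in Rbpj+/+ liver and -0.35, -0.78 and -0.48 in Rbpj-/- liver, a difference of -1.13 (SE 0.24, adjusted p = 0.0115). A second probe with that gene name, placed on another chromosome (6), was above background on 6 of 7 arrays and differed by -1.63 (SE 0.58, adjusted p = 0.0723). On the first probe the genotypes did not overlap, and residual signal in whole liver was measured in all 3 Rbpj-/- animals. Of the hepatocyte markers, all 20 on the array were above background in every animal.

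The scale on which the arrays are set against each other bears on every result below. The 75th percentile of the intensity was 118 to 143 on the Rbpj-/- arrays and 57.5 to 103 on the Rbpj+/+ arrays. Dividing each array by its own percentile therefore lowered the Rbpj-/- values more than the Rbpj+/+ values. The median difference over all 18755 genes was -0.13 after this scaling, -0.04 after quantile normalization and 0.60 with no scaling. All 4 Rbpj+/+ arrays lay in row 1 of the slide and all 3 Rbpj-/- arrays in row 2, so the slide row and the genotype cannot be told apart. In whole liver, fewer cells of a type and less RNA per cell cannot be told apart either.

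Of the 10 apolipoprotein genes, 8 were lower and 2 were higher in Rbpj-/- liver at the 75th percentile scaling. Over all genes tested, 19.5% were lower and 14.6% were higher. The genotypes did not overlap in 8 members that were lower and in Apoa4, which was higher, against 21.1% and 15.4% of all genes. Apoa1, Apoa2, Apoa5, Apob, Apoc1, Apoc3, Apoe and Apoh fell by 0.57 to 1.0 on the log2 scale, and Apoa4 and Apom rose by 1.40 and 0.88. The median difference of the 10 genes was -0.71, against -0.13 over all genes. With quantile normalization 3 were lower (Apoa5, Apob and Apoc3) and with no scaling none was, against 15.2% and 2.38% of all genes. Apoa4 and Apom were higher under both, against 16.6% of all genes after quantile normalization and 41.2% with no scaling. In all tested genes together, the share of calls that were higher was 42.8% after the 75th percentile scaling, 52.3% after quantile normalization and 94.5% with no scaling.

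**Figure D1:**
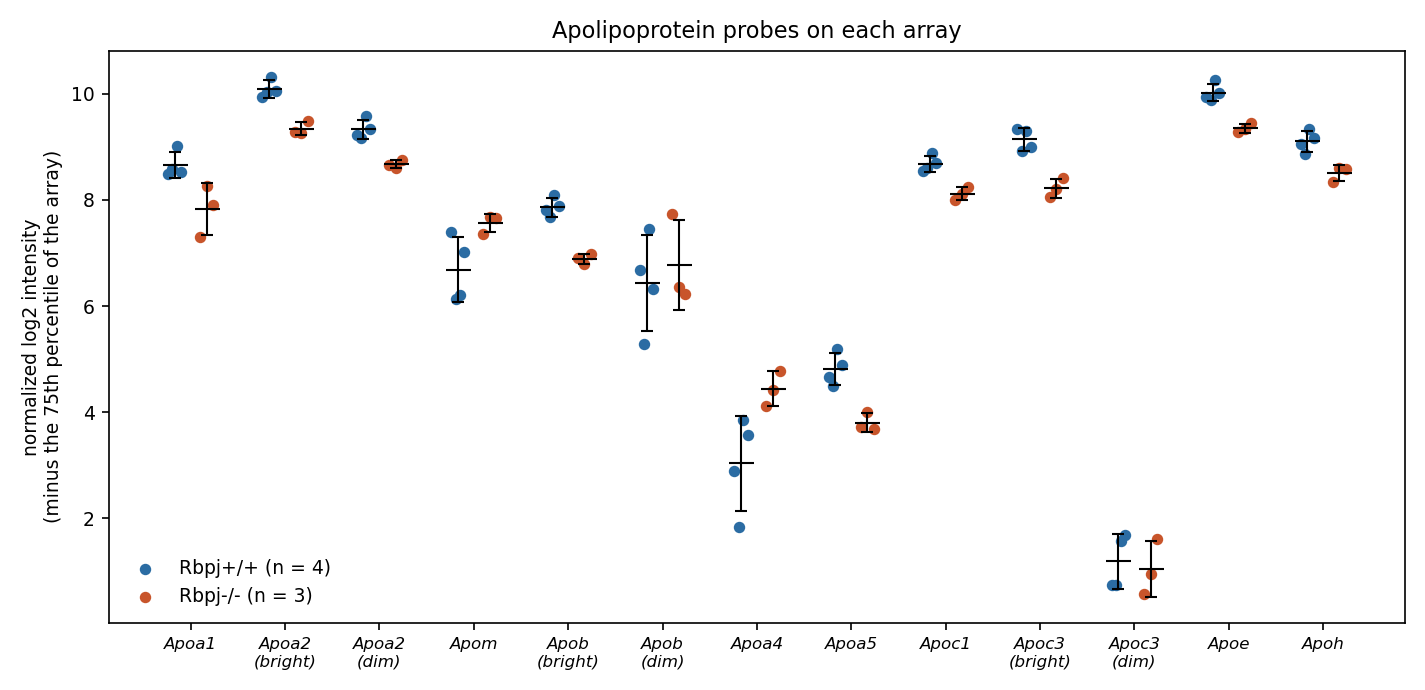
Normalized log2 intensity of each apolipoprotein probe on each array (points), with the mean and SD of 4 Rbpj+/+ (blue) and 3 Rbpj-/- (orange) arrays; "bright" and "dim" mark the probes of a gene with 2. The Rbpj-/- points of Apoa1, Apoa2, Apoa5, Apoc1, Apoe and Apoh and of the bright Apob and Apoc3 probes lie below all Rbpj+/+ points, and those of Apoa4, 4.13 to 4.78, lie above them.

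Among the HDL apolipoproteins, Apoa1 and Apoa2 were lower and Apom was higher. Apoa1, which forms the scaffold of the HDL particle and activates the enzyme that esterifies its cholesterol, read 8.48, 8.58, 9.01 and 8.53 in Rbpj+/+ liver and 7.30, 8.27 and 7.91 in Rbpj-/- liver. All 3 Rbpj-/- arrays lay below the lowest Rbpj+/+ array, and the Rbpj-/- animals were spread over 0.96 against 0.53 in Rbpj+/+. The difference was -0.83 (SE 0.26, adjusted p = 0.0520), 1.77-fold lower. This probe was printed 10 times on each array, and its spots on 1 array had an SD of 0.04 to 0.07, so the spread between animals was larger than that between spots. Without Rbpj-/- replicate 1, the lowest animal, the difference was -0.56 (adjusted p = 0.160), and without Rbpj+/+ replicate 3 it was -0.70 (adjusted p = 0.128).

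Apoa2, the second protein of HDL, gave the same picture on both of its probes. The brighter one read 9.93, 10.04, 10.32 and 10.05 in Rbpj+/+ liver and 9.28, 9.26 and 9.49 in Rbpj-/- liver, a difference of -0.74 (SE 0.18, adjusted p = 0.0224). The other probe differed by -0.66 (adjusted p = 0.0337), and the distance between both probes varied by 0.25 over the 7 arrays. The genotypes did not overlap on either probe. The sign of the brighter probe was not kept under quantile normalization, where it was 0.031 (adjusted p = 0.885), and on the unscaled intensities it was -0.013 (adjusted p = 0.973).

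Apom, the sphingolipid carrier of HDL, moved the other way. It read 7.39, 6.13, 6.21 and 7.01 in Rbpj+/+ liver and 7.36, 7.67 and 7.66 in Rbpj-/- liver. The Rbpj-/- animals lay within 0.31 of each other at the upper end of a Rbpj+/+ range of 1.26, and Rbpj+/+ replicate 1 reached into them. The difference was 0.88 (SE 0.32, adjusted p = 0.0815), 1.84-fold higher, with a 95% interval of 0.14 to 1.61. It was 1.19 after quantile normalization (adjusted p = 0.0344). The call was lost when any of Rbpj+/+ replicates 2 and 3 or Rbpj-/- replicates 1, 2 and 3 was left out, with differences of 0.69 to 0.98 and adjusted p of 0.122 to 0.201.

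The apolipoproteins of triglyceride-rich particles held both the largest fall and the largest rise of the 10 genes. Apoa5, a liver protein that raises the hydrolysis of plasma triglyceride by lipoprotein lipase, read 4.67, 4.49, 5.19 and 4.89 in Rbpj+/+ liver and 3.73, 4.01 and 3.68 in Rbpj-/- liver. The highest Rbpj-/- animal lay below the lowest Rbpj+/+ animal by more than the Rbpj-/- range of 0.33. The difference was -1.0 (SE 0.22, adjusted p = 0.0140), a 2.0-fold lower level. It was -0.87 after quantile normalization (adjusted p = 0.0167) and -0.27 on the unscaled intensities (adjusted p = 0.444).

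Apoc3, which slows lipolysis and the uptake of remnant particles and so acts against Apoa5, was lower as well. Its brighter probe read 9.34, 8.92, 9.30 and 8.99 in Rbpj+/+ liver and 8.05, 8.19 and 8.40 in Rbpj-/- liver, with no overlap. The difference was -0.92 (SE 0.20, adjusted p = 0.0129), 1.90-fold lower, and -0.54 after quantile normalization (adjusted p = 0.0463). The second Apoc3 probe lay far closer to background, read 0.75 to 1.69 in Rbpj+/+ and 0.58 to 1.62 in Rbpj-/- liver, and did not pass the test (-0.14, SE 0.34, adjusted p = 0.790). Apoc1, a small exchangeable protein that hinders receptor binding of remnants, read 8.55, 8.59, 8.88 and 8.70 in Rbpj+/+ liver and 7.99, 8.11 and 8.24 in Rbpj-/- liver. Its difference of -0.57 (SE 0.18, adjusted p = 0.0523) was the smallest of the 8 falls and did not pass when any of Rbpj+/+ replicates 3 and 4 or Rbpj-/- replicates 1 and 2 was left out (-0.50 to -0.56, adjusted p 0.114 to 0.147). On the unscaled intensities it was 0.16 (adjusted p = 0.652).

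Apob gave different results on its 2 probes. The first read 7.80, 7.67, 8.09 and 7.88 in Rbpj+/+ liver and 6.90, 6.79 and 6.97 in Rbpj-/- liver, a difference of -0.97 (SE 0.18, adjusted p = 0.0081), 1.96-fold lower. Both groups were tight, and the gap between them was larger than the range within either. The second probe, further along the gene in the direction of transcription, read 6.67, 5.29, 7.46 and 6.32 in Rbpj+/+ liver and 7.74, 6.35 and 6.22 in Rbpj-/- liver, a difference of 0.34 (SE 0.53, adjusted p = 0.669). Here the genotypes overlapped over most of their range, and the distance between both Apob probes on 1 array varied by 3.22 over the 7 arrays, against 0.25 for Apoa2. That distance was 1.31 higher in Rbpj-/- liver, which did not pass an exact permutation test (2-sided p = 0.0857). The fall of Apob therefore rests on the first probe alone, and what the second probe measures was not tested.

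Apoa4, a protein of chylomicrons that liver and intestine both make in the mouse, was the member with the largest rise. It read 2.89, 1.84, 3.85 and 3.58 in Rbpj+/+ liver and 4.13, 4.42 and 4.78 in Rbpj-/- liver, or 306 to 894 and 2487 to 3243 as unscaled intensities. All 3 Rbpj-/- animals lay above the highest Rbpj+/+ animal, and the Rbpj+/+ animals varied over 2.02. The difference was 1.40 (SE 0.45, adjusted p = 0.0517), 2.64-fold higher, with a 95% interval of 0.39 to 2.41. It was 1.52 after quantile normalization (adjusted p = 0.0380) and 2.13 on the unscaled intensities (adjusted p = 0.0024). Without Rbpj-/- replicate 2 it was 1.41 (adjusted p = 0.126) and without Rbpj-/- replicate 3 it was 1.23 (adjusted p = 0.133). Of 10 markers of intestinal epithelium 3 could be tested, and the lactase gene Lct was above background on 1 of 7 arrays while sucrase-isomaltase (Sis) and intestinal alkaline phosphatase (Alpi) were on none. Of the 3, Fabp2, a fatty acid binding protein, fell by 2.20 (adjusted p = 0.0043) and Anpep, an aminopeptidase, fell by 0.47 (adjusted p = 0.0993). Vil1, which encodes the brush border protein villin, was detected above background on 3 of 3 Rbpj-/- but only 2 of 4 Rbpj+/+ arrays, and so it entered the test through the group in which it was higher; its difference was 1.26 (adjusted p = 0.0033), and 0.092 with another background correction (normexp). The summed unscaled intensity of the list was 7008 to 15337 in Rbpj+/+ and 7991 to 9025 in Rbpj-/- liver, and its part in the Apoa4 value was not tested.

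Apoe, the receptor ligand of remnant particles, is made by hepatocytes and also by macrophages. It read 9.93, 9.88, 10.25 and 10.02 in Rbpj+/+ liver and 9.27, 9.33 and 9.44 in Rbpj-/- liver, with no overlap. The difference was -0.67 (SE 0.18, adjusted p = 0.0296), 1.59-fold lower, but 0.082 after quantile normalization (adjusted p = 0.649) and 0.055 on the unscaled intensities (adjusted p = 0.886), which ran from 70091 to 100341 in Rbpj+/+ and from 82202 to 88172 in Rbpj-/- liver. The direction of Apoe thus depended on the scaling. Of 16 macrophage markers 13 were higher and 1, Itgam, was lower in Rbpj-/- liver, against 14.6% and 19.5% of all genes. Gpnmb, 1 of the 13, was well above background in Rbpj-/- liver alone. The summed unscaled intensity of the macrophage markers was 9121 to 19427 in Rbpj+/+ and 67690 to 90111 in Rbpj-/- liver. Their part in the Apoe and Apoc1 values was not tested.

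Apoh, the phospholipid-binding plasma protein also called beta-2-glycoprotein I, read 9.05, 8.86, 9.32 and 9.17 in Rbpj+/+ liver and 8.34, 8.60 and 8.58 in Rbpj-/- liver. The groups did not overlap, and the difference was -0.59 (SE 0.19, adjusted p = 0.0532), 1.51-fold lower. It was -0.18 after quantile normalization (adjusted p = 0.321) and 0.13 on the unscaled intensities (adjusted p = 0.719). The difference did not pass without Rbpj+/+ replicates 3 or 4 or Rbpj-/- replicates 1 or 2 (-0.51 to -0.64, adjusted p 0.114 to 0.156). Apoa5, Apoe, the first Apob probe and the brighter probes of Apoa2 and Apoc3 passed as lower with each of the 7 arrays left out in turn.

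**Figure D2:**
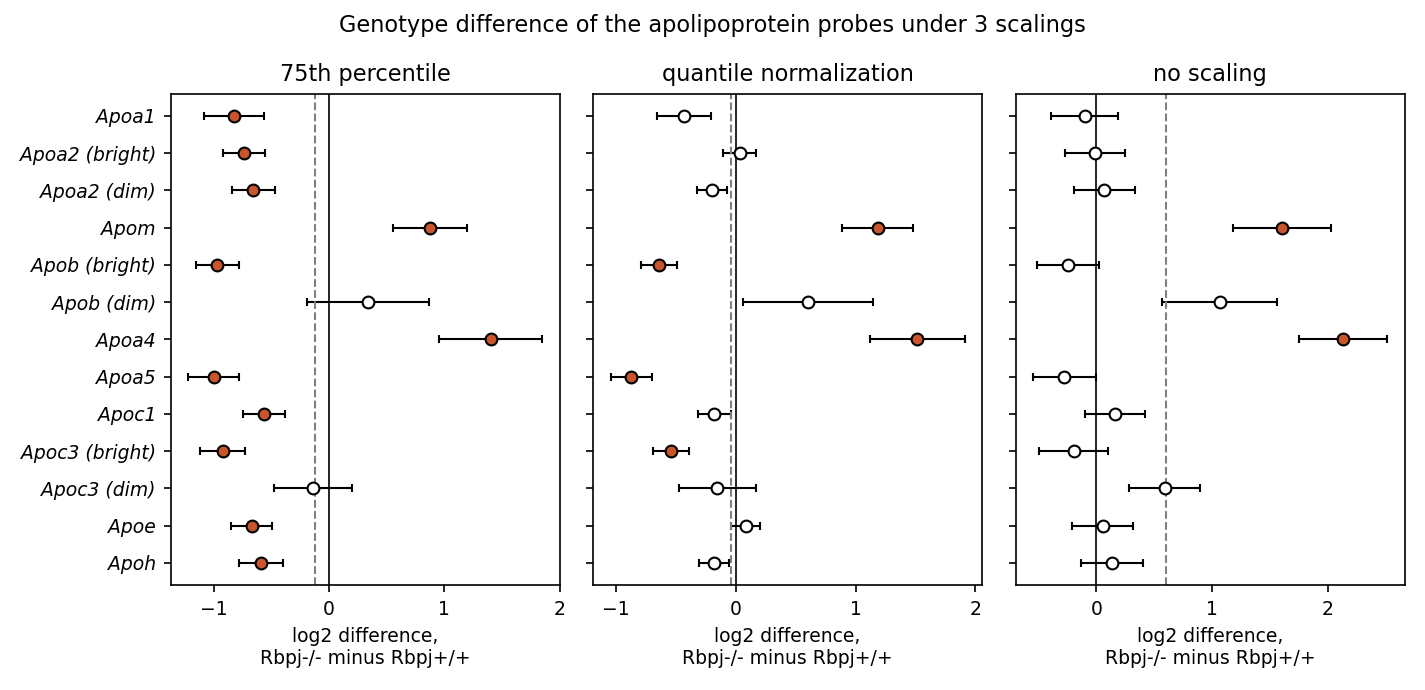
Log2 difference (Rbpj-/- minus Rbpj+/+, x axis) of each apolipoprotein probe under 3 scalings, with the standard error as bars; filled points have an adjusted p below 0.1, the solid line is at 0 and the dashed line is the median of all genes. Apoa4 and Apom lie to the right in all 3 panels, while the probes of the other genes, apart from the dim one of Apob, lie left of the dashed line at the 75th percentile scaling and without scaling, and Apoa2 and Apoe lie at 0.031 and 0.082 after quantile normalization.

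The members were compared with each other in a way that no additive scaling can alter, as the log2 difference of 2 genes on the same array, in 5 pairs. Apoa4 and Apoa1 both lie in the Apoa1-Apoc3-Apoa4-Apoa5 cluster of chromosome 9. Apoa4 minus Apoa1 was -5.59, -6.74, -5.16 and -4.95 in Rbpj+/+ liver and -3.18, -3.85 and -3.13 in Rbpj-/- liver. All 3 Rbpj-/- animals lay above all 4 Rbpj+/+ animals, and the ratio was 4.68-fold higher (2.23 on the log2 scale, SE 0.46). Its exact permutation p was 0.0286, the smallest the design allows, and 0.143 after adjustment over the 5 pairs, so it did not pass the threshold. After this adjustment a single pair at the smallest p cannot pass unless other pairs are low too. That outcome therefore does not bear on the size of the difference. It was 1.95 after quantile normalization.

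The remaining pairs differed by -0.10 to -0.18 between genotypes. Against Apoa1, the ratio of Apoa5 differed by -0.18 (SE 0.24, exact permutation p = 0.429), that of Apoc3 by -0.10 (SE 0.27, exact permutation p = 0.800) and that of Apob by -0.14 (SE 0.32, exact permutation p = 0.657), each with overlapping genotypes. Apoe minus Apoc1, neighbours in a cluster on chromosome 7, was 1.28 to 1.38 in Rbpj+/+ and 1.20 to 1.28 in Rbpj-/- liver. That difference of -0.11 (SE 0.03) came from groups that barely stayed apart, the highest Rbpj-/- value being 1.281 and the lowest Rbpj+/+ value 1.283. The difference had an exact permutation p of 0.0571 and an adjusted p of 0.143, and it was 0.26 after quantile normalization. None of the 5 pairs passed at an adjusted p of 0.1, which a single pair could not have done alone.

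**Figure D3:**
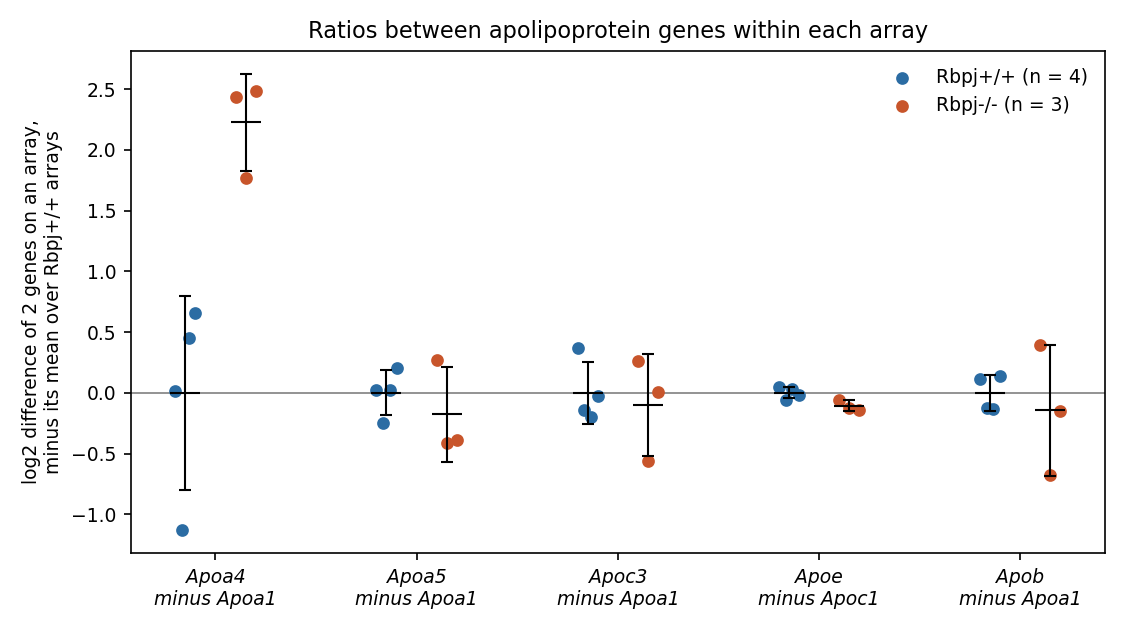
Log2 difference between 2 apolipoprotein genes on the same array, each shown minus its mean over the Rbpj+/+ arrays; points are arrays (4 Rbpj+/+ in blue, 3 Rbpj-/- in orange) and bars the mean and SD. Apoa4 minus Apoa1 is higher by 2.23 on average in Rbpj-/- liver, and the other pairs differ by -0.10 to -0.18.

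The windows upstream of 2 neighbours in the chromosome 9 cluster that moved in opposite directions, Apoa4 (higher) and Apoa5 (lower), are shown as the 250 bases before the RefSeq transcript start (GRCm38.p6, plus strand). Capitals mark matches to the letters CAAAGTNCA, a form of the HNF4 binding motif, or to the TATA box letters TATAAA.
Apoa4, chr9:46240594-46240843: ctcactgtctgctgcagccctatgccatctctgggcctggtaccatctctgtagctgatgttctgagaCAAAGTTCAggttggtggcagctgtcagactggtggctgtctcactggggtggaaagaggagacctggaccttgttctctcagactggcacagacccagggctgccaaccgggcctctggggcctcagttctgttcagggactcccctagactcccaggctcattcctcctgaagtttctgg
Apoa5, chr9:46268358-46268607: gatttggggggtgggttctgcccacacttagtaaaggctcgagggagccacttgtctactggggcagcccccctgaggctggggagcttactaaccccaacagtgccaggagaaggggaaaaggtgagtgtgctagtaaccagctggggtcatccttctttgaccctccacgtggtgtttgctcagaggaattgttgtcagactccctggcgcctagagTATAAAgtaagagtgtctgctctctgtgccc

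The RefSeq table held 12 such windows for 8 of the members, and none for Apoc1 and Apoc3. In all, 12 short patterns were searched on both strands: 5 at first, and 7 more after the results of those had been seen. Of the first 5, TATAAA occurred in 5 of the 12 windows (Apoa2, Apoa5, Apob and Apoe, the pair of Apoa5 windows overlapping at the same match) and in 12.4% of 32851 windows of all genes. The other 4 occurred in none of the 12: the HNF4 letters CAAAGTCCA (0.384% of all windows), the C/EBP letters TTGCGCAA (0.164%), the HNF1 palindrome (0.00913%) and the direct repeat of the nuclear receptor letters AGGTCA with a spacing of 1 base (0.0335%). Of the 7 tried afterwards, CAAAGTNCA occurred in the Apoa4 window and in 1.19% of all, CAAAGNNCA in windows of Apoa4, Apob and Apoh and in 5.49%, AAAGTCCA in 1 Apoa2 window and in 1.01%, and GTTAAT in 1 Apoe window and in 6.43%. CAAAGGTCA, GGGCAAAGG and TGACGT occurred in none of the 12 and in 0.426%, 0.536% and 6.47% of all windows. The capitals in the Apoa4 window therefore mark a pattern kept because it matched there, and the match supports nothing. Several of these patterns contain or overlap each other, and no match overlapped a TATAAA.

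Most of the members stood among the brightest probes, and bright probes as a class were lower in Rbpj-/- liver. Of 281 genes with a mean level of 8 or more, 124 (44.1%) were lower and 3 (1.07%) higher, with a median difference of -0.46. Apoa1, Apoa2, Apoc1, Apoc3, Apoe and Apoh are 6 of these 281. Of 1148 genes with a level from 6 to 8, which hold Apob and Apom, 316 (27.5%) were lower and 42 (3.66%) higher. Apoa5 stood among 2025 genes at a level of 4 to 6, of which 20.8% were lower, and Apoa4 among 3597 genes at 2 to 4, of which 11.3% were higher. After quantile normalization the medians of these 4 classes lay between -0.02 and -0.04.

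Some hepatocyte markers moved much as the 8 lower members did, and others did not. Of 20 measured, 11 were lower and none was higher at the 75th percentile scaling, against 19.5% and 14.6% of all genes, with a median of -0.60. The 9 that were not called differed by -0.30 to 0.94, the highest being Cps1 (adjusted p = 0.162). After quantile normalization 1 of the 20 was lower and 3 were higher, against 15.2% and 16.6% of all genes. Albumin (Alb), the main plasma protein of the hepatocyte, read 9.93, 9.79, 10.17 and 9.89 in Rbpj+/+ liver and 9.17, 9.11 and 9.23 in Rbpj-/- liver, a difference of -0.78 (SE 0.18, adjusted p = 0.0167). Serpina1a (alpha-1-antitrypsin), Ttr (transthyretin) and Asgr2 (a subunit of the asialoglycoprotein receptor) fell by 0.83, 0.77 and 0.72, Asgr2 being at 0.011 on the unscaled intensities and passing with Rbpj+/+ replicate 2 or Rbpj-/- replicate 3 left out but with no other array left out (at -0.46 without Rbpj-/- replicate 1, adjusted p = 0.278). On the unscaled intensities the median of the hepatocyte markers was 0.13, that of the 10 members 0.02 and that of all genes 0.60. Markers of other cells differed too, where 14.6% of all genes were higher and 19.5% lower. Of 12 stellate cell and fibroblast markers 9 were higher and none lower, with summed unscaled intensities of 11652 to 15706 in Rbpj+/+ and 32097 to 49672 in Rbpj-/- liver. Of 8 tested lymphocyte markers 6 were lower and none higher (2598 to 3419 and 1860 to 2696). In these 2 lists, Timp1 was detected on 2 of 4 Rbpj+/+ arrays, and Cd79a and Ms4a1 on 2 and 1 of 3 Rbpj-/- arrays, so these markers entered through the group in which they were higher. Other lists were mixed. Of 10 endothelial markers 4 were higher and 1 lower, and of 6 tested neutrophil markers 4 were higher and 1 lower. Of 8 tested cholangiocyte markers 2 were higher and 1 lower, and of 7 tested erythroid markers 1 was higher and 1 lower. Some endothelial and neutrophil calls also entered through the group in which they were higher. Which of the cell make-up, the RNA per cell and the scaling moved these values was not tested.

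Of the 17 other apolipoproteins on the array 15 were tested, and 2 were higher and 5 lower, against 14.6% and 19.5% of all genes. Apoc2, the activator of lipoprotein lipase and a neighbour of Apoc1 and Apoe on chromosome 7, read 8.19, 7.92, 8.49 and 8.23 in Rbpj+/+ liver and 8.70, 8.83 and 9.27 in Rbpj-/- liver. It rose by 0.72 (SE 0.22, adjusted p = 0.0449) with no overlap, against the fall of Apoc1 and Apoe beside it. Saa1, an acute phase protein that binds HDL, rose by 2.64 (adjusted p = 0.0723), with an SD of 1.95 among the Rbpj+/+ animals. The 5 lower genes were Apon (-1.04), Apol9a (-1.0), Apol9b (-0.99), Apoc4 (-0.83) and Apof (-0.58), with adjusted p between 0.0496 and 0.0694; Apol9a and Apol9b are near-identical copies whose probes may share transcripts. None of these 5 was past the threshold after quantile normalization, while Apoc2 and Saa1 were. All 7 calls were lost with some single array left out: Apoc2 without Rbpj-/- replicates 2 or 3, Saa1 without Rbpj+/+ replicates 2, 3 or 4 or Rbpj-/- replicates 1 or 3, Apoc4 without Rbpj+/+ replicates 3 or 4 or Rbpj-/- replicate 1, Apon without Rbpj+/+ replicates 1, 3 or 4 or Rbpj-/- replicate 2, and Apol9a, Apol9b and Apof without Rbpj+/+ replicates 1, 3 or 4 or Rbpj-/- replicates 1 or 2. Without Rbpj-/- replicate 2, Apon was at -0.66 (adjusted p = 0.187) and Apol9a at -0.69 (adjusted p = 0.229).

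The genes that assemble and secrete the Apob particle were 16, of which 4 were lower and none higher, against 19.5% and 14.6% of all genes, so that the share of lower genes was near that of all genes: A1cf (-0.72), a cofactor of Apob mRNA editing, Lman1 (-0.71), a cargo receptor of the endoplasmic reticulum, Mia2 (-0.62), which helps to load large cargo, and Tmem41b (-0.53), a lipid scramblase. On the unscaled intensities these 4 differed by 0.0094 to 0.19. With the mean of its 2 tested probes Lman1 was at -0.30 (adjusted p = 0.301) and did not pass, while Mia2 was at -1.06 with the mean of its probes. Of the 4, A1cf passed with each array left out, while Lman1 did not pass without Rbpj+/+ replicate 3 or Rbpj-/- replicates 1 or 2, Mia2 passed only with replicate 2 of either genotype left out, and Tmem41b only with Rbpj+/+ replicate 2 left out. Mttp, the transfer protein that lipidates apolipoprotein B, read 4.51, 4.14, 4.69 and 4.45 in Rbpj+/+ liver and 3.74, 3.98 and 4.21 in Rbpj-/- liver. Its difference of -0.47 (SE 0.21, adjusted p = 0.134) did not pass.

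Among 11 tested lipases and their regulators, 2 were higher and 3 lower, shares near the 14.6% and 19.5% of all genes. Lpl, the lipoprotein lipase that Apoa5, Apoc2 and Apoc3 act on, was 4.46-fold higher (2.16, SE 0.29, adjusted p = 0.0021), and Gpihbp1, its endothelial anchor, rose by 0.65 (adjusted p = 0.0698). The lipase inhibitors Angptl8 (-1.12) and Angptl4 (-0.86) and the lipase chaperone Lmf1 (-0.69) were lower, of which Lmf1 was at 0.037 on the unscaled intensities and at -0.19 (adjusted p = 0.475) with the mean of its 2 tested probes, so its call rests on the brighter probe. Lpl and Angptl8 passed with each array left out. Angptl4 did not pass without Rbpj-/- replicate 2, Gpihbp1 without Rbpj+/+ replicates 1 or 4 or Rbpj-/- replicates 2 or 3, and Lmf1 without Rbpj+/+ replicates 3 or 4 or Rbpj-/- replicates 1 or 2. Hepatic lipase, Lipc, had a difference of -0.66 (adjusted p = 0.189).

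Of 9 genes that form and remodel HDL 1 was higher and 2 were lower, shares near the 14.6% and 19.5% of all genes. Abcg1, a cholesterol exporter, rose by 1.86 (adjusted p = 0.00082), while Pon1, the paraoxonase carried on HDL, and Bmp1, a protease that processes pro-apolipoprotein A-I, fell by 1.73 and 0.78. Lcat, the enzyme that Apoa1 activates, had a difference of 0.18 (adjusted p = 0.665). Of 13 tested receptors and their regulators 5 were higher and none lower, against 14.6% and 19.5% of all genes. The higher genes were led by the scavenger receptor Cd36 (3.40), Mylip, a ubiquitin ligase (1.60), the VLDL receptor Vldlr (1.28, and 0.84 without Rbpj-/- replicate 3) and the proteoglycan Sdc1 (1.12).

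Of 27 transcriptional regulators known to act on apolipoprotein genes 10 were lower and none was higher, against 19.5% and 14.6% of all genes. The bile acid receptor Nr1h4 fell by 1.52 (adjusted p = 0.0032), Ppara, the fatty acid receptor, by 1.40 (adjusted p = 0.0096), Mlxipl, the carbohydrate response factor, by 1.29 (adjusted p = 0.0106) and Cebpa by 1.01 (adjusted p = 0.0877). Cebpa passed with Rbpj+/+ replicate 2 or Rbpj-/- replicate 3 left out (-1.55 without the latter) and with no other array left out, and was at -0.70 without Rbpj-/- replicate 2 (adjusted p = 0.279). Creb3l3, a liver factor known to activate Apoa4 and Apoa5, fell by 0.85 (SE 0.18, adjusted p = 0.0136). Its difference was -0.51 after quantile normalization and -0.12 on the unscaled intensities. Hnf4a, which binds many apolipoprotein promoters, had a difference of -0.32 (SE 0.18, adjusted p = 0.216), and of 0.040 after quantile normalization. After quantile normalization 9 of the 27 were lower, and on the unscaled intensities 1 was lower and 7 were higher.

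**Figure D4:**
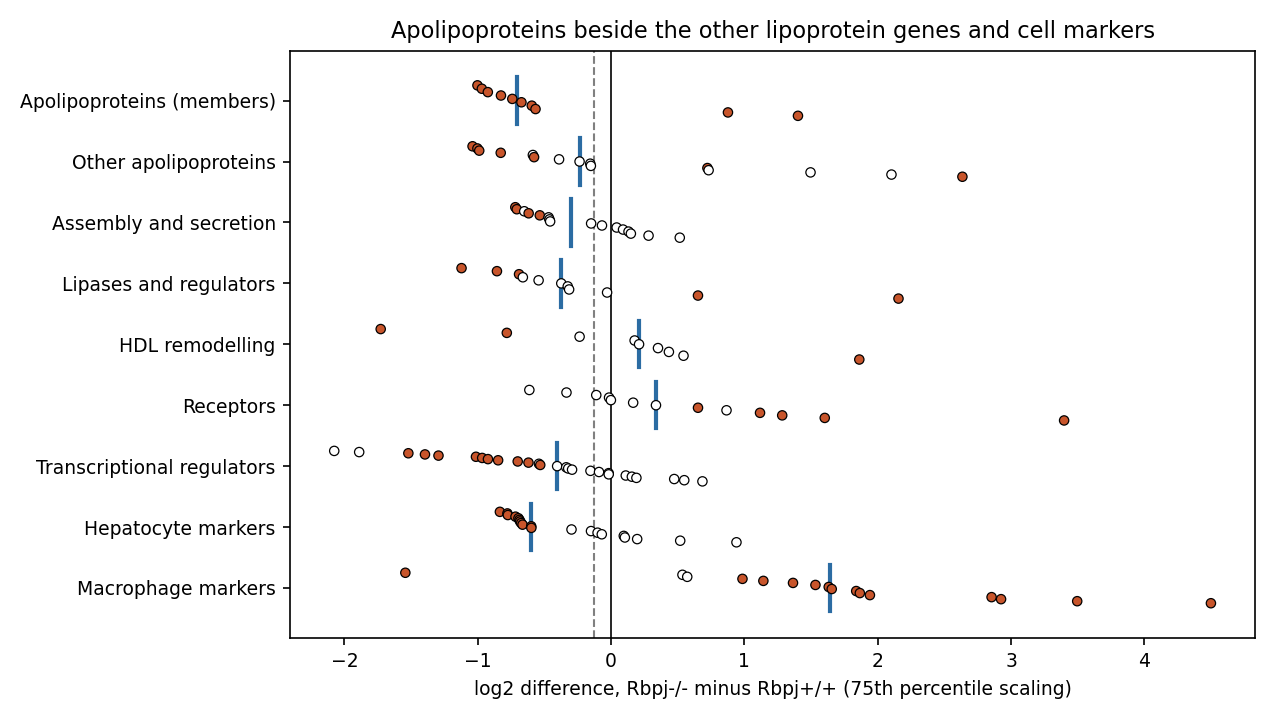
Log2 difference (Rbpj-/- minus Rbpj+/+, 75th percentile scaling) of each tested gene (points) in the apolipoprotein group, 6 groups of related genes and 2 groups of cell markers; filled points have an adjusted p below 0.1, blue bars are group medians, the solid line is 0 and the dashed line the median of all genes. The apolipoproteins have a median of -0.71 with 2 genes to the right, near the hepatocyte markers at -0.60 and away from the macrophage markers at 1.64.

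The tested genes whose pattern over the 7 arrays was nearest to Apoa4 were Wnt9b, Ddah1 and Cps1, with root mean square differences of 0.25, 0.30 and 0.33 between log2 values centred on the Rbpj+/+ mean, of 18745 genes compared. Wnt9b and Ddah1 rose by 1.39 and 1.37, and Cps1, the first enzyme of the urea cycle, had a difference of 0.94 (adjusted p = 0.162). Wnt9b was a dim probe, with a mean level of -2.37 in Rbpj+/+ and -0.98 in Rbpj-/- liver. Nearest to Apoa5 were a transcript named only ENSMUST00000119126, Eme2 and a non-coding region of chromosome 16, at 0.10 to 0.11, with differences of -1.12, -0.94 and -1.02. These likenesses are over the same 7 arrays that gave the genotype differences and carry no test.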

How the data were processed

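Total RNA of 7 livers (4 Rbpj+/+, 3 Rbpj-/-) was labelled with Cy3 and hybridised to Agilent 8x60K arrays on 1 slide. The authors' scanner files, written by Agilent Feature Extraction 10.7.3.1 per the labels, hold deposited intensities (background-corrected processed signals, linear scale). The authors' deposited series matrix holds log2 values with every probe centred on its median over the arrays and array medians of -0.0039 to 0. Its direction is that of the scanner values. It differed from the quantile-normalized scanner values, centred alike, by a median of 0.000574 to 0.0063 per array and from values shifted at the percentile the methods name by 0.064 to 0.274, and it was used as an alternative. The genome build of the array annotation is mm9. Here, spots flagged as non-uniform or population outliers were left out, spots of a probe were averaged as log2 values, and each array's 75th percentile over 55681 non-control probes was subtracted. A probe was tested when either genotype had it well above background on each of its arrays (24548 probes). Rbpj-/- was compared with Rbpj+/+ by limma 3.58.1 in R 4.3.3, which stands in for the shrinkage statistic of the study's methods, with Benjamini-Hochberg adjustment over all tested probes and the study's threshold of 0.1. Where several probes named a gene, the brightest tested one stood for it, which gave 18755 genes. The fit was tested on simulated data. Ratios and single probes were also tested by 2-sided exact permutation over the 35 assignments of arrays. Genes were named when they were Rbpj, a member, 1 of 9 lipoprotein, regulator and hepatocyte genes given whatever their value (1 of which is not reported here), among up to 4 called genes with the largest change each way in a list, or among the 3 nearest to the largest rise or fall; Apof, Lct, Sis, Alpi, Itgam, Fabp2, Vil1, Anpep, Gpnmb, Timp1, Cd79a and Ms4a1 were named beside counts. The members and lists were chosen with earlier results of these data known, so counts over them are descriptions. That Xist was above background on 1 array of 7 while Ddx3y and Eif2s3y were on all 7 was noted, and the Xist signal was tried as a covariate. On the other arrays that signal was at background. Its mean was -4.68 in Rbpj+/+ and -6.00 in Rbpj-/- liver, so the covariate overlaps with the genotype. Alternatives covered the scaling, background, filters, probes, weights and each array left out in turn. Arrays have no read depth, and their small number sets the precision. Replicate numbers are names in accession order, and animals were taken as separate because the labels give each its own identifier.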

Additional observations from a re-analysis of the deposited data

How the results depend on the processing

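The higher values of Apoa4 and Apom kept their direction under every alternative run, and the falls of Apoa1, Apoa5 and of the first probes of Apob and Apoc3 kept theirs, although not always their call. Most of the rest changed with the scaling. Against 2 higher and 8 lower of the 10 members, quantile normalization and the series matrix each gave 3 lower, no scaling 0 lower, no filter on dim probes 0 higher and 1 lower, the Xist covariate 1 higher and 5 lower, and a threshold of 0.05 gave 0 higher and 5 lower. Averaging the probes of each gene gave 6 lower, as Apob (-0.32) and Apoc3 (-0.53) no longer passed. Leaving out 1 array gave 0 to 2 higher and 5 to 8 lower. The direction turned for the brighter Apoa2 probe with quantile normalization (0.031) and the series matrix (0.014) and for the other without scaling (0.071), and for Apoe with quantile normalization (0.082), the series matrix (0.069) and without scaling (0.055). Without scaling it also turned for Apoc1 (0.16), Apoh (0.13), the dim Apoc3 probe (0.59), A1cf (0.0094), Lman1 (0.020), Mia2 (0.11), Tmem41b (0.19), Lmf1 (0.037), Asgr2 (0.011), Mttp (0.26), Lipc (0.066), Apof (0.15) and Hnf4a (0.41). For Hnf4a it also turned with quantile normalization (0.040) and with the series matrix (0.044). Probes that had not passed also turned: the second Apob probe with array weights (-0.086) and between -0.15 and 0.68 with 1 array left out, and the dim Apoc3 probe with normexp (0.064) and between -0.42 and 0.097 with 1 array left out.

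Of the 64 other lipoprotein genes 10 were higher and 14 lower, shares near the 14.6% and 19.5% of all genes. No scaling gave 29 higher and 1 lower, normexp 20 higher, no filter 4 higher and 0 lower, quantile normalization 7 lower, the series matrix 7 lower, the Xist covariate 3 lower, a threshold of 0.05 gave 7 lower, and leaving out 1 array 6 to 11 higher and 6 to 20 lower. Of the 27 regulators, 0 higher and 10 lower, the percentile over detected probes gave 1 higher, limma-trend 1 higher, array weights 1 higher, the mean of all probes 2 higher, normexp 3 higher, no scaling 7 higher and 1 lower, no filter 2 lower, the Xist covariate 5 lower, a threshold of 0.05 gave 6 lower, and leaving out 1 array 0 to 1 higher and 4 to 11 lower. Of the 20 hepatocyte markers, 0 higher and 11 lower, quantile normalization gave 3 higher and 1 lower, the series matrix 3 higher and 1 lower, the percentile over detected probes 1 higher, normexp 2 higher, no scaling 4 higher and 0 lower, no filter 0 lower, the Xist covariate 3 lower, a threshold of 0.05 gave 7 lower, and leaving out 1 array 5 to 11 lower.

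For the ratios, the mean of all probes turned Apoc3 minus Apoa1 (0.29) and Apob minus Apoa1 (0.51), since it takes in the second probe of Apoc3 and of Apob, and Apoe minus Apoc1 turned with quantile normalization (0.26) and the series matrix (0.24). With 1 array left out, Apoa4 minus Apoa1 was 1.85 to 2.46, Apoa5 minus Apoa1 -0.40 to -0.057, Apoc3 minus Apoa1 -0.28 to 0.13, Apoe minus Apoc1 -0.13 to -0.089 and Apob minus Apoa1 -0.41 to 0.12. Without Rbpj-/- replicate 1 all of these but Apoc3 minus Apoa1 reached an adjusted exact permutation p of 0.0833. These pairs passed only because they tied at the smallest p that the remaining arrays allow. Most of them share the Apoa1 probe, whose lowest array was the one left out. With any other array left out none was below 0.1, and with an Rbpj+/+ array left out none could be. No paired analysis was possible because the labels give each animal its own identifier and the genotypes share no number. Signal over background limited no member except the dim Apoc3 probe, and 7 arrays limit the precision of all of them.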
